A study of Mus musculus with 4 samples.

Results

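The genes described are 9 that make, cut or bind hyaluronan: the synthases Has1, Has2 and Has3, the hyaluronidases Hyal1 and Hyal2, the receptor Cd44, and the binding proteins Vcan, Hapln1 and Tnfaip6. They were taken by name from an expression table of 23444 gene symbols, and each was listed with 1 entry. The cells were lung fibroblasts that carry Pdgfra, a receptor of platelet-derived growth factor, by which they were sorted. All libraries were from wild-type C57BL6 mice, with 1 library at each of 4 ages: embryonic days 16.5 (E16.5) and 18.5 (E18.5) and postnatal days 7 (P7) and 28 (P28). Per the labels, lungs were also dissected at other ages, which were not analysed here, and pooling of animals is not stated. A single library per age gives no measure of how animals vary and allows no test, so each difference is one between libraries.

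Hyaluronan is a long unbranched sugar polymer that synthases in the plasma membrane extrude into the matrix. Hyaluronidases cut it at the cell surface and in lysosomes, Cd44 anchors it to cells, and versican (Vcan) with link protein (Hapln1) gathers on it to form a swollen, hydrated matrix. TSG-6 (Tnfaip6) moves protein heavy chains from inter-alpha-inhibitor onto it. In the fetal lung this matrix fills the loose mesenchyme between the growing airways, and it thins as air spaces form.

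The 9 genes lie on 6 chromosomes of GRCm38 (GENCODE M21 coordinates). Has1 is on chromosome 17 (17843323 to 17855205, minus strand), Has2 on chromosome 15 (56665627 to 56694539, minus strand) and Has3 on chromosome 8 (106870242 to 106884566, plus strand). Hyal2 (107567945 to 107572779) and Hyal1 (107576927 to 107581710) are neighbours on the plus strand of chromosome 9, 4147 bases apart. Hyal1 shares 893 bases with the next gene, Hyal3, on the same strand, so reads from that stretch cannot be assigned with certainty. Hapln1 (89539796 to 89611652, plus strand) and Vcan (89655312 to 89742509, minus strand) are also neighbours, on chromosome 13, with their 3′ ends 43659 bases apart. Tnfaip6 (52038009 to 52056686, plus strand) and Cd44 (102811141 to 102901665, minus strand) are far apart on chromosome 2.

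Promoter sequences are shown for Tnfaip6 and Has1, which had their highest level in the same library (E18.5), and for Vcan, the most abundant of the 9 genes at E16.5. They are RefSeq promoter windows on GRCm38.p6, kept to the bases before both the RefSeq and the GENCODE start. They cover chr2:52037863-52038008 (Tnfaip6, plus strand), chr17:17855206-17855438 (Has1, minus strand) and chr13:89742513-89742762 (Vcan, minus strand). Capitals mark any match, on either strand, to the 5 motifs searched. The core promoter box was searched as TATAAA and the site of the factor NF-Y as CCAAT. AP-1 sites were searched as TGANTCA, cAMP response elements as TGACGTCA, and the palindrome of the glucocorticoid receptor by its full consensus.
Tnfaip6: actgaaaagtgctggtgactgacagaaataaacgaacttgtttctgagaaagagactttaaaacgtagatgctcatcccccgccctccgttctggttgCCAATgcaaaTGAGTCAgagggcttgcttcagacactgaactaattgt
Has1: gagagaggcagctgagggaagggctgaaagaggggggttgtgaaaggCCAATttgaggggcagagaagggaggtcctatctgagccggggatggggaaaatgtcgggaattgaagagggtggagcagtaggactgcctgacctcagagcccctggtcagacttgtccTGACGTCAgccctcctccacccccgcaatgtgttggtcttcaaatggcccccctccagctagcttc
Vcan: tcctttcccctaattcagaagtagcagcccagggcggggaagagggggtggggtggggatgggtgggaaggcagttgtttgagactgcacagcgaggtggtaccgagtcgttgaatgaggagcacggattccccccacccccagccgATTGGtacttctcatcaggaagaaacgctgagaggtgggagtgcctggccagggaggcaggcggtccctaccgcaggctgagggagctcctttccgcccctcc

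Each of the 3 windows held 1 CCAAT match, a motif found in 19.4% of all 32851 promoter windows cut to the 146 bases of Tnfaip6, in 32.4% at the 233 bases of Has1 and in 33.8% at the 250 bases of Vcan. Windows were cut by keeping the bases farthest from the RefSeq start. The bases next to that start were therefore not searched for Tnfaip6 and Has1, nor in the windows set beside them. The Tnfaip6 window held 1 AP-1 match, which 3.86% of windows cut in the same way held. The Has1 window held 1 cAMP response element, found in 1.32% of windows. These windows held no TATAAA and no glucocorticoid receptor palindrome, and none of the matches overlapped. The motifs were chosen after the promoters were seen, so the shares do not measure how unusual a match is. The matches are a description of these letters. The table used had a promoter for 7 of the 9 genes. Those without an entry were Has2 and Has3.

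Values given in series run from E16.5 through E18.5 and P7 to P28. They are FPKM, a measure of fragments scaled to transcript length and to all mapped fragments, as the authors deposited them. FPKM is per length, so levels can be compared between genes. The depth of each library is unknown. Most values of the E18.5 library were low: of 7930 symbols that never fell under 1 FPKM, 94.3% were lower there than in the mean of the other 3. The median log2 ratio over these symbols was -0.95 from E16.5 to E18.5 and 1.25 from there to P7, but -0.36 from P7 to P28, 0.23 from E16.5 to P7 and -0.10 from E16.5 to P28. Median-ratio scaling was therefore applied as well, which divides the libraries by 1.15, 0.581, 1.38 and 1.08 in order of age. Levels in the text are as deposited unless said to be scaled.

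Pdgfra and fibroblast markers were abundant in every library, and transcripts of other cell types varied between them. Pdgfra was at 88.7, 95.9, 113 and 188 FPKM in order of age, and all 8 fibroblast markers were at 1 FPKM or more in each library. The summed FPKM of 8 endothelial markers was 16.6, 24.6, 728 and 183 in order of age, with Cdh5 at 276 at P7. That of 7 mesothelial markers was 14.1, 16.5, 61.0 and 175, with Nkain4 at 11.9 at E16.5 and Msln at 38.9 at P28. That of 8 leukocyte markers was 1363, 65.7, 19.4 and 5065. At P28 it was almost all Lyz2 (5062), which alveolar type 2 cells also express, and the defining leukocyte gene Ptprc was at 0.0983. The sum of 8 epithelial markers was 34.4, 136, 54.6 and 30233, led by Scgb1a1 at 19258 at P28. Pericyte and smooth muscle markers (7 genes, led by Myh11) summed to 96.5, 96.9, 186 and 27.0. After scaling this sum was 84.1, 167, 135 and 25.0, highest at E18.5. Myh11 alone was at 73.5, 51.2, 94.5 and 1.78 as deposited. Kcnj8 (8.86 at P7, 9.13 at P28) and Abcc9 (4.55, 8.87) were higher at P28 than at P7 as deposited. The other genes of that list were lower. Erythroid markers (5 genes, led by Hba-a1) summed to 5.13, 432, 21.6 and 1.64 as deposited. The part of these cells in the results was not tested, and in sorted bulk RNA fewer cells of a type and less RNA per cell cannot be told apart.

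**Figure D1:**
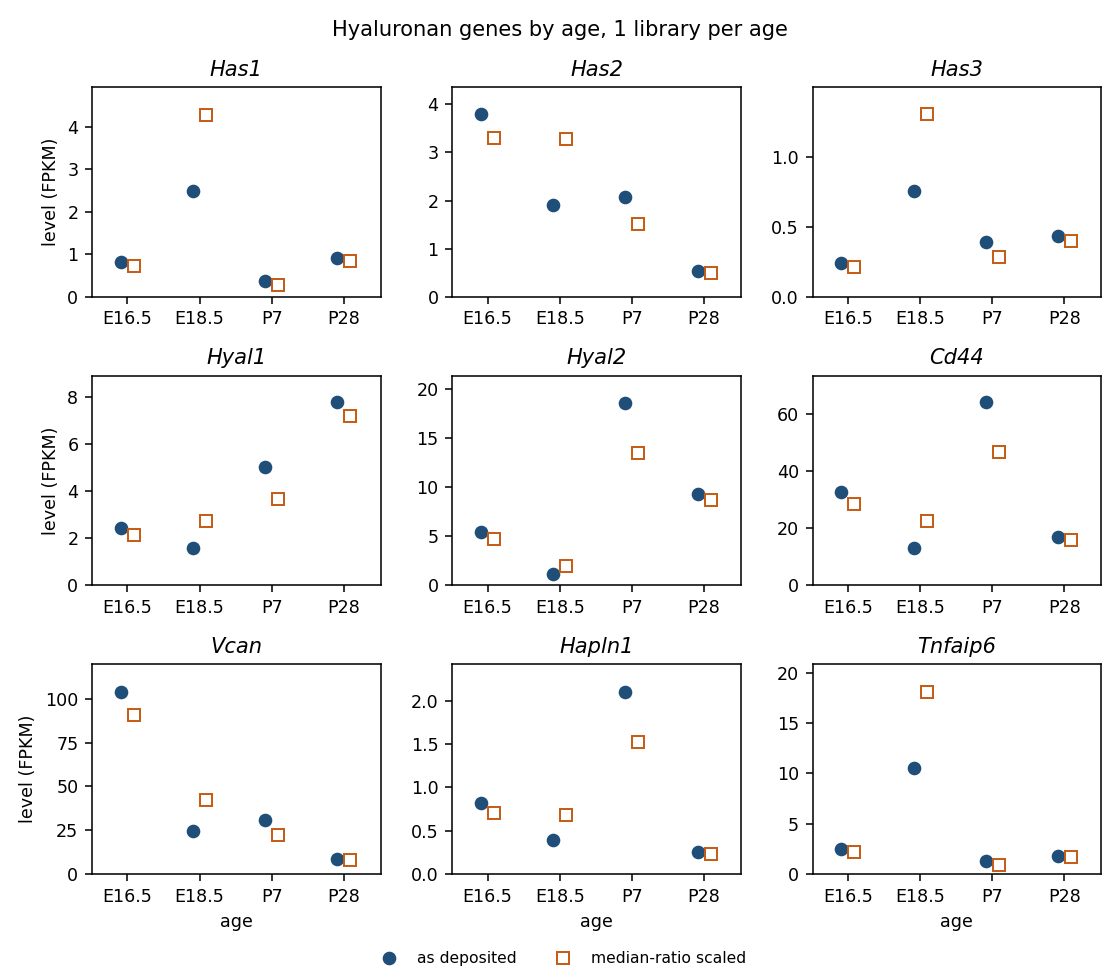
Level of each of the 9 genes (y axis, FPKM from 0, a scale per panel) at the 4 ages (x axis), with 1 library per age. Filled circles are values as deposited and open squares values after median-ratio scaling. Vcan is highest at E16.5 (104 FPKM), Tnfaip6, Has1 and Has3 at E18.5, Hyal2, Cd44 and Hapln1 at P7, and Hyal1 at P28 (7.77 FPKM).

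The synthases were low in every library, and which of them led changed with age. Has2, the synthase that the mouse embryo needs for heart development, was at 3.80, 1.91, 2.08 and 0.540 FPKM over the 4 ages. After scaling it was at 3.31, 3.29, 1.51 and 0.501, so both fetal libraries lay close together and P28 was lowest on either scale. The E16.5 value was 7.03 times that of P28 as deposited and 6.61 times after scaling. The order of E18.5 and P7 depends on the scale, with a difference in log2(FPKM + 1) of 0.08 for P7 minus E18.5 as deposited and -0.77 after scaling.

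Has1, a synthase also known from mesothelial cells and from activated fibroblasts, was at 0.821, 2.49, 0.381 and 0.903 FPKM in order of age. It was highest at E18.5 and lowest at P7 on both scales, with a ratio between them of 6.54 as deposited and 15.5 after scaling. The mesothelial marker sum was 14.1, 16.5, 61.0 and 175 FPKM over the same ages. At E16.5 most of it was Nkain4, at 11.9 FPKM and then 4.75 at E18.5. The number of the 7 mesothelial markers that reached 1 FPKM was 2, 5, 6 and 7 in order of age. The part of mesothelial cells in the Has1 values was not tested. Has3, a synthase known to make shorter chains than the other two, was at 0.240, 0.759, 0.388 and 0.431 FPKM in order of age. It was likewise highest at E18.5, and it was the 1 gene of the 9 that stayed under 1 FPKM in all 4 libraries as deposited.

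The shares within a library do not depend on its scale. Of the summed synthase FPKM, Has2 made up 78.2% at E16.5 and 37.0% at E18.5, then 73.0% at P7 and 28.8% at P28. Has1 made up 16.9%, 48.3%, 13.4% and 48.2%, so it exceeded Has2 at E18.5 and P28 and lay below it at E16.5 and P7. Has3 ranged from 4.94% at E16.5 to 23.0% at P28. The summed synthase level was 4.86, 5.16, 2.85 and 1.87 FPKM over the 4 ages. At levels this low, and with the depth unknown, the precision of these shares cannot be given.

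The hyaluronidases were highest after birth. Hyal2, a surface enzyme held by a lipid anchor that starts the breakdown of long chains, was at 5.42, 1.14, 18.5 and 9.33 FPKM in order of age. E18.5 was lowest and P7 highest on both scales, with a ratio of 16.3 as deposited and 6.88 after scaling. Hyal1, the lysosomal enzyme that cuts the fragments further, was at 2.45, 1.59, 5.04 and 7.77 FPKM in order of age. After scaling it was at 2.14, 2.74, 3.66 and 7.20, higher at each successive age, whereas as deposited E18.5 was its lowest library.

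The neighbouring genes thus peaked at different ages. The ratio of Hyal2 to Hyal1 within a library was 2.21, 0.714, 3.68 and 1.20 over the 4 ages. Hyal1 exceeded Hyal2 at E18.5 alone. Hyal2 is also known from endothelial cells, and its highest library, P7, was the one with the highest endothelial marker sum. The part of those cells in the Hyal2 values was not tested.

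Relative to the synthases, the hyaluronidases were lower in both fetal libraries than in both postnatal ones. The summed FPKM of Hyal1 and Hyal2 was 1.62 times that of the 3 synthases at E16.5 and 0.528 times at E18.5. It was 8.27 times at P7 and 9.12 times at P28. These are ratios of transcript levels within a library, and they say nothing of enzyme activity. Other breakdown genes are not in the sums, among them Tmem2, described below (4.28, 2.49, 58.0 and 12.6 FPKM in order of age). At E18.5 the hyaluronidase and synthase sums were only 2.72 and 5.16 FPKM. With the depth unknown, the precision of the ratios cannot be given.

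**Figure D2:**
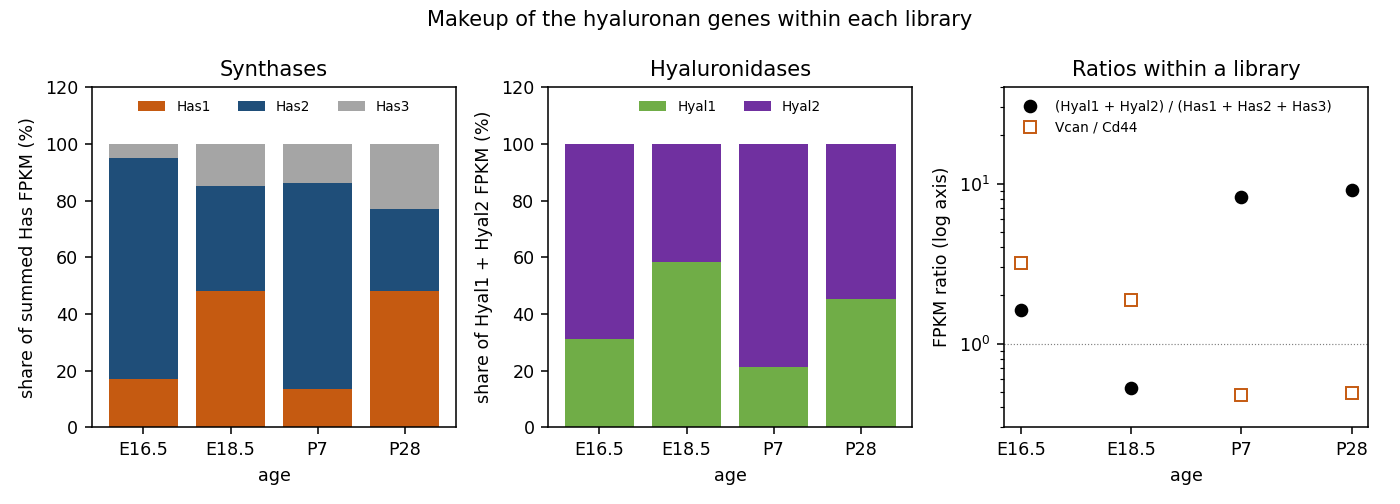
Left and middle, share of each gene (y axis, percent) in the summed FPKM of the 3 synthases and of Hyal1 and Hyal2, by age (x axis). Right, ratios of FPKM within a library (log axis); the ratio of hyaluronidases to synthases is 8.27 at P7 and 9.12 at P28 (filled circles), while that of Vcan to Cd44 is above 1 before birth and below 1 after it (open squares).

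Among the receptor and binders, Vcan and Cd44 were the abundant genes and exchanged places. Vcan, the large chondroitin sulfate proteoglycan whose end domain binds hyaluronan, was at 104, 24.6, 30.7 and 8.46 FPKM in order of age. After scaling it was lower at each successive age, at 90.6, 42.4, 22.3 and 7.84. Its E16.5 level was 12.3 times that of P28 as deposited and 11.5 times after scaling. Ranked within its own library, a measure with no scale, Vcan stood at percentile 99.0 of all symbols at E16.5, 97.6 at E18.5 and, after birth, 94.8 at P7 and 83.2 at P28.

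Cd44, the main hyaluronan receptor of fibroblasts and leukocytes, was at 32.8, 13.1, 64.3 and 17.1 FPKM over the 4 ages. P7 was highest on both scales, and the lowest library was E18.5 as deposited and P28 after scaling (15.9, beside 22.6 at E18.5). The leukocyte gene Ptprc was at 15.4, 0.536, 0.278 and 0.0983 FPKM at these ages. The endothelial marker sum was 16.6, 24.6, 728 and 183 FPKM, highest at P7 as Cd44 was. The part of leukocytes and of endothelial cells in the Cd44 values was not tested. The ratio of Vcan to Cd44 was 3.17, 1.88, 0.477 and 0.494 in order of age.

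Hapln1, the link protein that locks versican onto hyaluronan, was at 0.814, 0.397, 2.11 and 0.249 FPKM over the 4 ages. It was highest at P7 and lowest at P28 on both scales. Its highest library was not that of its chromosomal neighbour Vcan, which was highest at E16.5. Vcan FPKM was 128 times that of Hapln1 at E16.5, 62.0 times at E18.5 and, after birth, 14.6 times at P7 and 34.0 times at P28. Hapln1 was under 1 FPKM at E16.5, E18.5 and P28, so with the depth unknown the precision of these ratios cannot be given.

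Tnfaip6, a secreted protein best known from inflamed tissue and from the matrix around the egg cell, was at 2.47, 10.5, 1.24 and 1.80 FPKM over the 4 ages. The E18.5 library alone was high, and the other 3 lay between 1.24 and 2.47. E18.5 exceeded P7 8.45-fold as deposited and 20.05-fold after scaling, and E16.5 4.25-fold and 8.40-fold. Tnfaip6 was at percentile 93.5 of symbols within the E18.5 library and between 55.5 and 64.4 in the others. It is also known as a gene that cell stress can induce, and the summed FPKM of 8 immediate early genes (led by Zfp36), a list added after seeing the data, was 1060, 1003, 342 and 649 over the 4 ages. After scaling that sum was 924, 1727, 249 and 602, highest at E18.5 as well. Its part in the Tnfaip6 and Has1 values was not tested.

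The 9 genes were then compared between ages against the whole table. A gene counted as different where log2(FPKM + 1) was at least 1 apart (2-fold) and reached 5 FPKM on the higher side. Only 5 of the 9 genes reached 5 FPKM in any library, so Has1, Has2, Has3 and Hapln1 could not be counted as deposited. Of all symbols, 32.8% reached it.

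Between E16.5 and E18.5, Vcan was lower and Tnfaip6 higher as deposited and after median-ratio scaling. As deposited, 1 of 9 genes was higher (Tnfaip6, log2 difference 1.73) and 3 were lower (Vcan -2.03, Hyal2 -1.59, Cd44 -1.26), while over all symbols 0.593% were higher and 12.1% lower. After scaling 1 was higher (Tnfaip6, 2.60) and 1 lower (Vcan, -1.08), against 2.41% and 3.13% of all symbols. With upper-quartile scaling the Vcan difference was -0.98, under the threshold. The median log2 difference of the 9 genes was -0.41 as deposited, beside -0.71 over the 12561 symbols that reached 1 FPKM in some library (expressed symbols). After median-ratio scaling it was -0.01, beside -0.03.

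Between E18.5 and P7, Hyal2 and Cd44 were higher and Tnfaip6 lower on both scales. As deposited, 3 of 9 genes were higher (Hyal2 3.19, Cd44 2.21, Hyal1 1.22) and 1 was lower (Tnfaip6, -2.36), against 17.8% and 0.815% of all symbols. After scaling 2 were higher (Hyal2 2.29, Cd44 1.02) and 1 lower (Tnfaip6, -3.33), against 3.86% and 3.15%. The difference for Cd44 was 0.89 with upper-quartile scaling, under the threshold. For Vcan the direction depended on the scale, with a log2 difference of 0.31 as deposited and -0.90 after median-ratio scaling. With upper-quartile scaling it was -1.03, and Vcan counted as lower. The median of the 9 genes was 0.31 as deposited, beside 0.92 over expressed symbols. After median-ratio scaling its sign changed, to -0.77 beside 0.04.

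Between P7 and P28, Cd44 (-1.85) and Vcan (-1.74) were lower, and none of the 9 genes was counted as higher. The 2 lower genes compare with 5.13% of all symbols lower and 3.19% higher. After scaling the same 2 genes were lower (Cd44 -1.50, Vcan -1.39), against 2.79% lower and 3.98% higher. The median of the 9 genes was -0.92 as deposited, beside -0.23 over expressed symbols. After scaling it was -0.58, beside 0.03. The epithelial marker sum was highest in the P28 library, and the endothelial marker sum was lower there than at P7 (183 against 728 FPKM). The part of these cells in the differences was not tested.

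In the pairs of E16.5 with the postnatal ages, the same genes of the 9 were counted as deposited and after scaling. Between E16.5 and P7, Hyal2 was higher (1.60, or 1.34 after scaling) and Vcan lower (-1.73, or -1.98). This is 1 of 9 genes in each direction, against 4.73% higher and 2.01% lower over all symbols, or 3.22% and 2.53% after scaling. The medians were 0.16 for both the 9 genes and expressed symbols as deposited, and 0.08 and -0.03 after scaling. Between E16.5 and P28, Hyal1 was higher (1.35, or 1.39 after scaling) and Vcan lower (-3.47, or -3.37), against 5.42% and 5.09% of all symbols, or 5.59% and 4.25% after scaling. The medians were -0.31 and -0.03 as deposited, and -0.24 and 0.03 after scaling. Has2 differed by -1.64 in this pair but stayed under 5 FPKM in both libraries. Comparisons that share a library are not independent of each other.

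**Figure D3:**
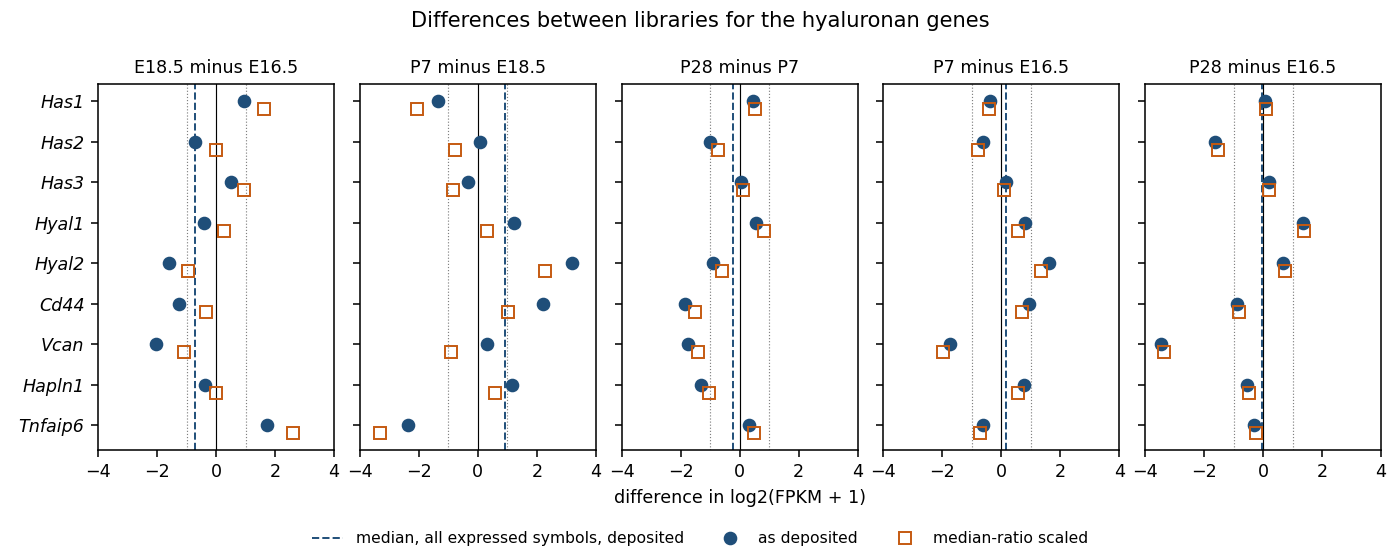
Difference in log2(FPKM + 1) between libraries (x axis) for the 9 genes (y axis) in 5 comparisons, as deposited (filled circles) and after median-ratio scaling (open squares). Dotted lines mark a 2-fold difference and the dashed line the median of expressed symbols as deposited; the circles and squares lie far apart in the comparisons with E18.5 and closer together in the other 3.

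Another 43 genes of hyaluronan supply, breakdown, reception and cross-linking, in 6 groups, were described in the same way, and all were listed in the table (Cemip under an older name). Of these, 19 reached 5 FPKM in some library and 16 stayed under 1 FPKM in all 4. As deposited, 2 were higher and 7 lower at E18.5 than at E16.5 (4 and 3 after scaling). At P7, 9 were higher and 1 lower than at E18.5 (5 and 4 after scaling), and 5 were higher and 1 lower than at E16.5 (5 and 2). At P28, 3 were higher and 5 lower than at P7 (5 and 4), and 7 were higher and 4 lower than at E16.5, as after scaling. Of all symbols, 32.8% reached 5 FPKM in some library. As deposited, 0.593% of all symbols were higher and 12.1% lower at E18.5 than at E16.5. For P7 these shares were 17.8% and 0.815% against E18.5, and 4.73% and 2.01% against E16.5. For P28 they were 3.19% and 5.13% against P7, and 5.42% and 5.09% against E16.5. The shares after scaling given above apply to the scaled counts.

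Of the 7 precursor genes, Gfpt2 stood out. It encodes an enzyme of the first step toward UDP-N-acetylglucosamine, and was at 2.18, 5.66, 2.04 and 14.2 FPKM in order of age. It was higher at P28 than at P7 and E16.5, and the E18.5 library also lay above both E16.5 and P7, on either scale. Ugp2, which makes UDP-glucose, was on average the most abundant of the group, at 20.04, 7.55, 22.7 and 19.7 FPKM. Its E18.5 value was counted as lower than E16.5 as deposited (-1.30) but not after scaling (-0.40).

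Among 10 other breakdown genes, Tmem2, a surface protein reported in mouse to cut hyaluronan outside the cell, was at 4.28, 2.49, 58.0 and 12.6 FPKM over the 4 ages. P7 was highest on both scales, as it was for Hyal2. The P7 level of Tmem2 also exceeded the 18.5 FPKM of Hyal2, so at that age it was the more abundant of these surface enzymes. Endothelial cells are a known site of both, and the endothelial marker sum was highest at P7 too. Their part in the Tmem2 and Hyal2 values was not tested.

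The 7 other receptors included Lyve1, the hyaluronan receptor of lymphatic vessels and some macrophages. It was at 7.19, 5.23, 146 and 26.6 FPKM in order of age, which has the same order of ages as Tmem2. The endothelial marker sum was highest at P7 too, and the part of endothelial cells in the Lyve1 values was not tested. Tlr2, an innate immune receptor that hyaluronan fragments are reported to engage, was at 21.9 FPKM at E16.5 and between 0.469 and 1.08 in the later libraries. The scavenger receptor Stab1, known from macrophages and sinusoidal endothelium, was at 6.69, 0.660, 5.94 and 1.97 FPKM. Tlr2 was high only in the E16.5 library. The number of the 8 leukocyte markers that reached 1 FPKM was 8, 6, 3 and 1 in order of age. The P28 library had the highest leukocyte marker sum (5065 FPKM, almost all Lyz2), with Tlr2 at 0.786 FPKM. The part of leukocytes in the Tlr2 values was not tested. Hmmr, which binds hyaluronan and also serves the mitotic spindle, was at 16.2, 1.71, 10.95 and 1.49 FPKM over the 4 ages.

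None of the 6 other hyalectan and link protein genes reached 1 FPKM in any library, and the most abundant, Bcan, was at most at 0.742. Vcan was the one hyalectan gene above that level, and Hapln1 was the most abundant link protein at each age. Of the 7 genes of heavy chain transfer, Itih5 was at 2.20, 1.75, 17.0 and 2.44 FPKM in order of age. Itih4 was listed at 0 at E16.5 and was at 0.0648, 0.350 and 13.8 FPKM after that. Both are parts of the inter-alpha-inhibitor family, whose classical heavy chains Tnfaip6 transfers. Genes for the classical chains, Itih1, Itih2 and Itih3, stayed under 1 FPKM in every library.

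The 6 versican proteases were led by Adamts1, a secreted metalloproteinase, at 44.8, 102, 50.9 and 67.9 FPKM over the 4 ages. It was higher at E18.5 than at E16.5 on both scales (1.17, or 2.14 after scaling). Adamts15 was at 1.33, 3.41, 7.06 and 48.4 FPKM, higher at each successive age as deposited, and its P28 minus E16.5 difference of 4.41 was the largest of the 43 genes in that pair. Vcan in that pair differed by -3.47, and a link between these transcript levels was not tested. After scaling Adamts15 was higher at P28 than at P7 as well (2.90), while its P7 and E18.5 values differed by -0.16.

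**Figure D4:**
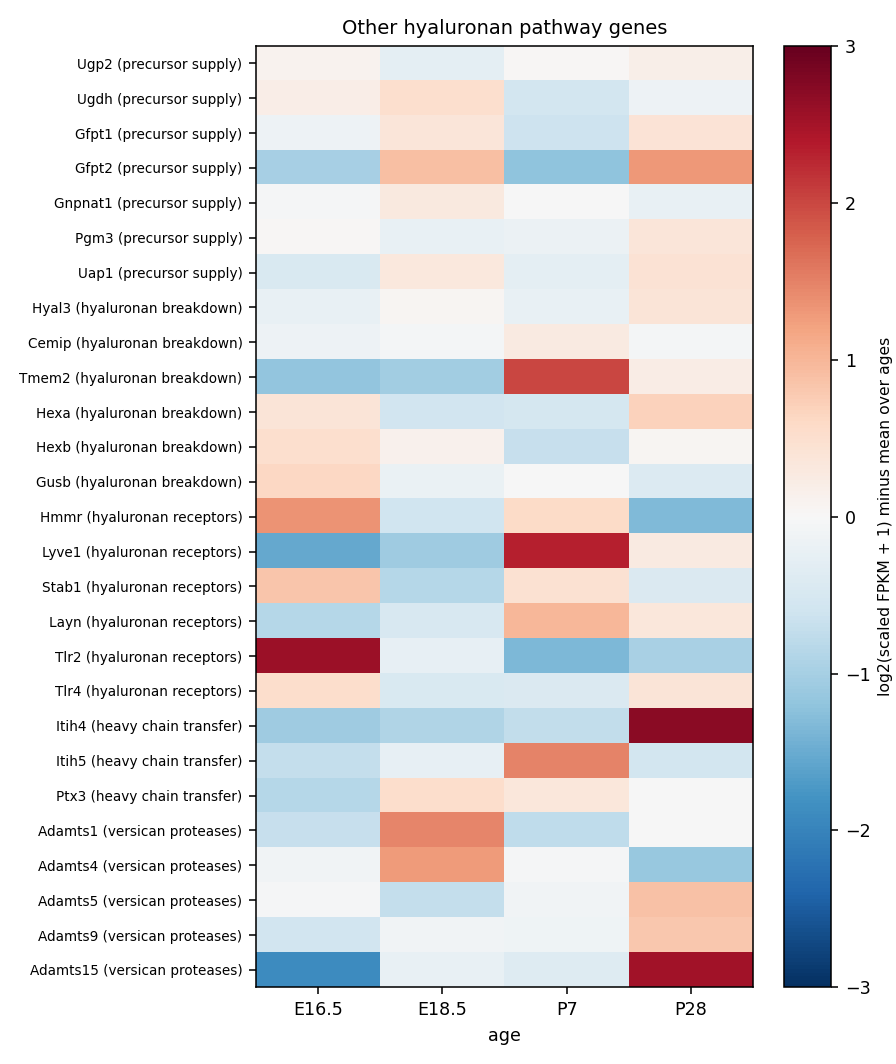
Of the 43 other genes, the 27 that reached 1 FPKM in some library (rows, with their group) at the 4 ages (columns). Color gives log2(FPKM + 1) after median-ratio scaling minus the mean of the gene over the 4 ages; Tmem2, Lyve1, Layn and Itih5 are highest at P7, Itih4 and Adamts15 at P28, and Tlr2 and Hmmr at E16.5.

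The genes with the most similar profile were found by Euclidean distance in log2(FPKM + 1) after scaling, each gene centred on its mean over the 4 libraries, among 7404 other named genes at 5 FPKM or more in some library. With 4 points many genes can lie close by, so the number within 0.5 is given too. Vcan had 1 gene within 0.5, Hist2h2bb (0.38), then Bcl11a (0.50) and Hpse2 (0.55). Histone genes are near-identical copies whose reads are uncertain. Tnfaip6 had none within 0.5, and its nearest were Olfr856-ps1 (0.51), Sertad1 (0.67) and Trib1 (0.68).

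Hyal2 had 27 genes within 0.5, and the nearest was Msn (0.13), at 113, 29.3, 319 and 164 FPKM in order of age, followed by Abi3 (0.14) and Map4k2 (0.28). Msn encodes moesin, which links the tail of Cd44 to actin. Cd44 itself had 71 genes within 0.5, with Tmsb10 (0.12), Cdk19 (0.22) and Pag1 (0.24) nearest. Hyal1 had 300, with Ezh1, Parp4 and Lrrc16a each at 0.09, so its profile was a common one.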

How the data were processed

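RNA of sorted fibroblasts was read as paired ends from Nextera XT libraries, per the labels' protocols. The submitters' processing notes name TopHat, TopHat2 2.0.9, GRCm38 and mm10. Which program computed FPKM is not stated in these sources. The authors deposited 1 table of FPKM with 23931 entries and 4 columns, 1 per age. FPKM keeps no read totals, so depth is unknown and no interval can be given.

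Values of entries with the same symbol were added (745 entries of 258 symbols, none of the 9 genes), giving 23444 symbols. Differences are on the log2(FPKM + 1) scale, which understates those of low genes. Median-ratio factors came from 7930 symbols at 1 FPKM or more in all 4 libraries. No test was possible with single libraries. The 9 genes, the lists and the threshold were chosen with earlier results of these data known, and the motifs after the promoters were seen.

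Named genes are the 9, Pdgfra, the nearest 3 profiles of each of the 9 that reached 5 FPKM, the most abundant gene of each list, and per comparison up to 3 other pathway genes with the largest differences each way. Beyond this rule, Abcc9, Cemip, Hyal3, Itih1, Itih2, Itih3, Kcnj8, Layn, Nkain4, Ptprc and Zfp36 were named after their values were seen. Alternatives were upper-quartile scaling, pseudocounts of 0.1 and 5, no minimum and a minimum of 20 FPKM. Python 3.11.15, numpy 2.4.6, pandas 2.3.3 and matplotlib 3.10.9 were used.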

Additional observations from a re-analysis of the deposited data

How the results depend on the processing

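Of 66 recounts of the 10 counts of genes past 2-fold, 50 were within 1.5 times the value as deposited. In the others the cause was not tested beyond what each setting does by construction. Of the 4 of the 9 genes counted between E16.5 and E18.5, 2 remained after median-ratio scaling, 1 (Tnfaip6) after upper-quartile scaling and 2 with a minimum of 20 FPKM. With upper-quartile scaling 3 were counted between E18.5 and P7, with Vcan added as lower and Hyal1 and Cd44 lost. A minimum of 20 FPKM left 1 of 4 between E18.5 and P7 (Cd44), and 1 of 2 between E16.5 and P7 and between E16.5 and P28 (Vcan). With a pseudocount of 5, 1 of 2 remained between E16.5 and P28 (Vcan). Without a minimum the 2 between P7 and P28 became 4, with Has2 and Hapln1 added. For the other 43 genes, a minimum of 20 FPKM left 3 in each of the 5 comparisons, and a pseudocount of 5 left 5 between E16.5 and E18.5, 6 between E18.5 and P7 and 6 between E16.5 and P28. Median-ratio scaling computed without the E18.5 library, chosen after seeing the data, moved none of the 6 counts it could give by over 1.5 times. Of 45 log2 differences of the 9 genes, 3 changed sign with median-ratio scaling and 5 with upper-quartile scaling, none of them past the threshold as deposited; these were Has2 and Vcan for P7 minus E18.5 and Hyal1 for E18.5 minus E16.5, and with upper-quartile scaling also Has2 (0.07) and Hapln1 (0.02) for E18.5 minus E16.5. No paired analysis was possible because each age has 1 library. Unknown depth limits the 4 genes that stayed under 5 FPKM most.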
